A study of Mus musculus with 6 samples.

Results

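The genes examined here decide between survival, death and cell-cycle arrest of a lymphocyte. They were 33 named genes, listed by their roles, in splenic CD8+ T cells (CD8-TC) cultured from Runx3-/- and WT mice. A gene was represented by the row of the value table that carries its symbol alone, and by the brightest such row where there were several. In this way 30 of the 33 genes were found among the 19938 genes of the table. Bax and Trp53, which have no row of their own name alone, and Cdkn1a, whose row also carries a second gene name, were not analysed here. Of the 30 genes, 29 reached the median of the whole table, 4.26 on the log2 scale, on at least 1 array and were tested together with all other such genes, 10021 in total. Bmf, which encodes a pro-apoptotic protein, lay below that level on all 6 arrays (3.53 to 4.12) and was not tested.

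Runx3 is a transcription factor that shapes cytotoxic T and NK cells, and the comparison addresses which genes depend on it once the cells are activated. WT (Runx3 +/+) and Runx3-/- cells came from spleens of individual ICR mice, 3 of each genotype, labelled as males aged 6 weeks. All cultures were stimulated for 2 days with anti-CD3 and anti-CD28 and then held for 4 days in IL-2 at 100 units per ml. The WT cells were selected on anti-CD8 beads only, whereas Runx3-/- cells were additionally sorted, to deplete CD11c+CD8+ dendritic cells at the start and CD4+CD8- cells at the end, so that sorting and genotype cannot be told apart. The labels name no tissue-restricted allele, and the sources do not say which part of Runx3 the allele lacks. Total RNA of each culture was measured on 1 Affymetrix mouse gene ST 1.0 array, as log2 values. The p-values therefore measure the spread between mice together with their cultures, and the number of arrays limits the precision.

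Some arrays stood apart or went against their labels. Runx3 itself was at 8.73 ± 0.45 (SD, n = 3) in WT and 9.10 ± 0.18 (SD, n = 3) in the arrays labelled Runx3-/- (limma, adjusted p = 0.521), so that its level does not check the labels, and these arrays are called KO-labelled below. Runx1 was at 4.45 to 4.69 in WT and 7.42 to 8.22 in KO-labelled arrays (difference 3.17, limma, adjusted p = 0.0049). The study lists Runx1 as repressed by Runx3 in these cells, a list drawn in part from these arrays. WT1, labelled male, had Xist at 10.6 against 3.31 to 3.40 on the other 5 arrays, and Eif2s3y of the Y chromosome at 3.93 against 9.24 to 9.39. WT2 and KO2 lay at the opposite ends of the main axis of variation, which held 49.6% of the variance. The 7 CD8 T cell markers were bright on all 6 arrays (7.13 to 12.1). Of these, Cd5 (1.12, past the study's threshold) and Cd2 (0.56, 1.47-fold) were higher in KO-labelled arrays without overlap, and the others overlapped. Cd4 was higher in KO-labelled arrays (6.70 to 6.95) than in WT (5.29 to 6.50), and the mean of Cd4 and Zbtb7b was 6.20 to 6.67 against 5.27 to 6.17. Both genes passed the study's threshold upward, at 0.95 (Cd4) and 0.64 (Zbtb7b). The mean of the 8 dendritic cell markers was 3.56 to 3.95 against 3.53 to 3.67, with Itgax, H2-Aa, H2-Ab1, Flt3, Zbtb46 and Siglech below 4.26 throughout. The other two, Cd74 and H2-Eb1, differed by 0.80 and 0.39 with overlapping groups, and Cd74 reached 5.74 on KO1. The mean of the 4 NK cell markers was 4.32 to 4.84 against 5.06 to 6.02, with Ncr1 and Klra8 below 4.26 on every array. Gzma (-2.55) and Klrb1c (-1.56) carried that difference, and both passed the study's threshold. Gzma encodes a granzyme and, unlike Ncr1 and Klra8, lay above 4.26 on all 6 arrays. The study describes granules with granzyme B in CD8-TC as well as in NK cells. Klrb1c was at 4.34 to 5.94 in WT and at 3.74 to 3.77, below 4.26 throughout, in KO-labelled arrays. Whether these differences came from NK cells or from the CD8-TC themselves was not tested. The 4 measured B cell markers averaged 3.79 to 4.07 against 3.93 to 4.14, with Cd79a, Ms4a1 and Pax5 below 4.26 throughout and Cd79b lower in KO-labelled arrays (-0.93, past the study's threshold), and the 5 myeloid markers averaged 3.71 to 3.90 against 3.93 to 4.23. The part of other cells in the values below was not tested, and in bulk RNA fewer cells of a type and less RNA per cell cannot be told apart.

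T cells that have been activated die by 2 routes unless they receive survival signals. In the mitochondrial route, BH3-only proteins antagonise the protective proteins Bcl-2, Bcl-xL and Mcl-1, so that Bak and Bax open the mitochondrial outer membrane and caspase-9 is activated on the Apaf-1 scaffold. In the receptor route, Fas and its relatives recruit caspase-8, which cFLIP restrains. The inhibitor of apoptosis proteins (IAPs) include an inhibitor of caspases and a ubiquitin ligase of the TNF receptor pathways. The transcription factor p53 induces genes of both death and arrest after DNA damage, and inhibitors of cyclin-dependent kinases (CDKs) hold cells before S phase. IL-2 sustains survival and division of CD8-TC and also renders activated T cells prone to Fas-mediated death.

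The 30 genes were split evenly by direction. KO-labelled arrays were higher for 15 and lower for 15, with a median difference of 0.02 on the log2 scale (KO-labelled minus WT, as everywhere below) and a range of -0.98 to 0.86, beside a median of -0.0011 over all 19938 genes. None of the 29 tested genes passed limma's test at an adjusted p of 0.05, which 0.629% of all tested genes did. At an unadjusted p of 0.05 the number was 6 genes, 20.7% of those tested, beside 14.1% of all genes. The study's threshold was laxer, at least 1.5-fold with an unadjusted p of 0.05, and 4 genes passed it, namely Birc3 and Fas upward and Zmat3 and Pmaip1 downward. These are 13.8% of the 29 genes, beside 8.3% of all tested genes (3.97% upward and 4.33% downward). The 3 WT and 3 KO-labelled values did not overlap for 7 genes, 24.1%, which is close to the 22.4% of all tested genes. Of these, Birc3, Fas and Mcl1 lay higher in KO-labelled arrays and Zmat3, Pmaip1, Casp9 and Ccng1 lower. The 4 genes at the study's threshold depended on single arrays to different degrees. Without WT1, whose sex label did not match, all 4 still passed, at 0.77 (Birc3), 0.75 (Fas), -0.81 (Zmat3) and -1.01 (Pmaip1). Without KO1, 9 genes passed, with Cdkn1b added upward and Bak1, Bcl2, Bcl2l1 and Cdkn2a added downward. Of all 10021 tested genes, 1258 then passed (514 higher, 744 lower), beside 832 with all 6 arrays (398 higher, 434 lower). With WT2 and KO2 both left out, Cdkn2c was added upward, at 0.93, and 881 of all tested genes passed. When each array was weighted by its quality, Birc3, Fas and Zmat3 also passed the adjusted threshold (adjusted p = 0.00748, 0.0234 and 0.0336). In that setting 547 of all 10021 tested genes passed it, beside 63 in the main fit.

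**Figure D1:**
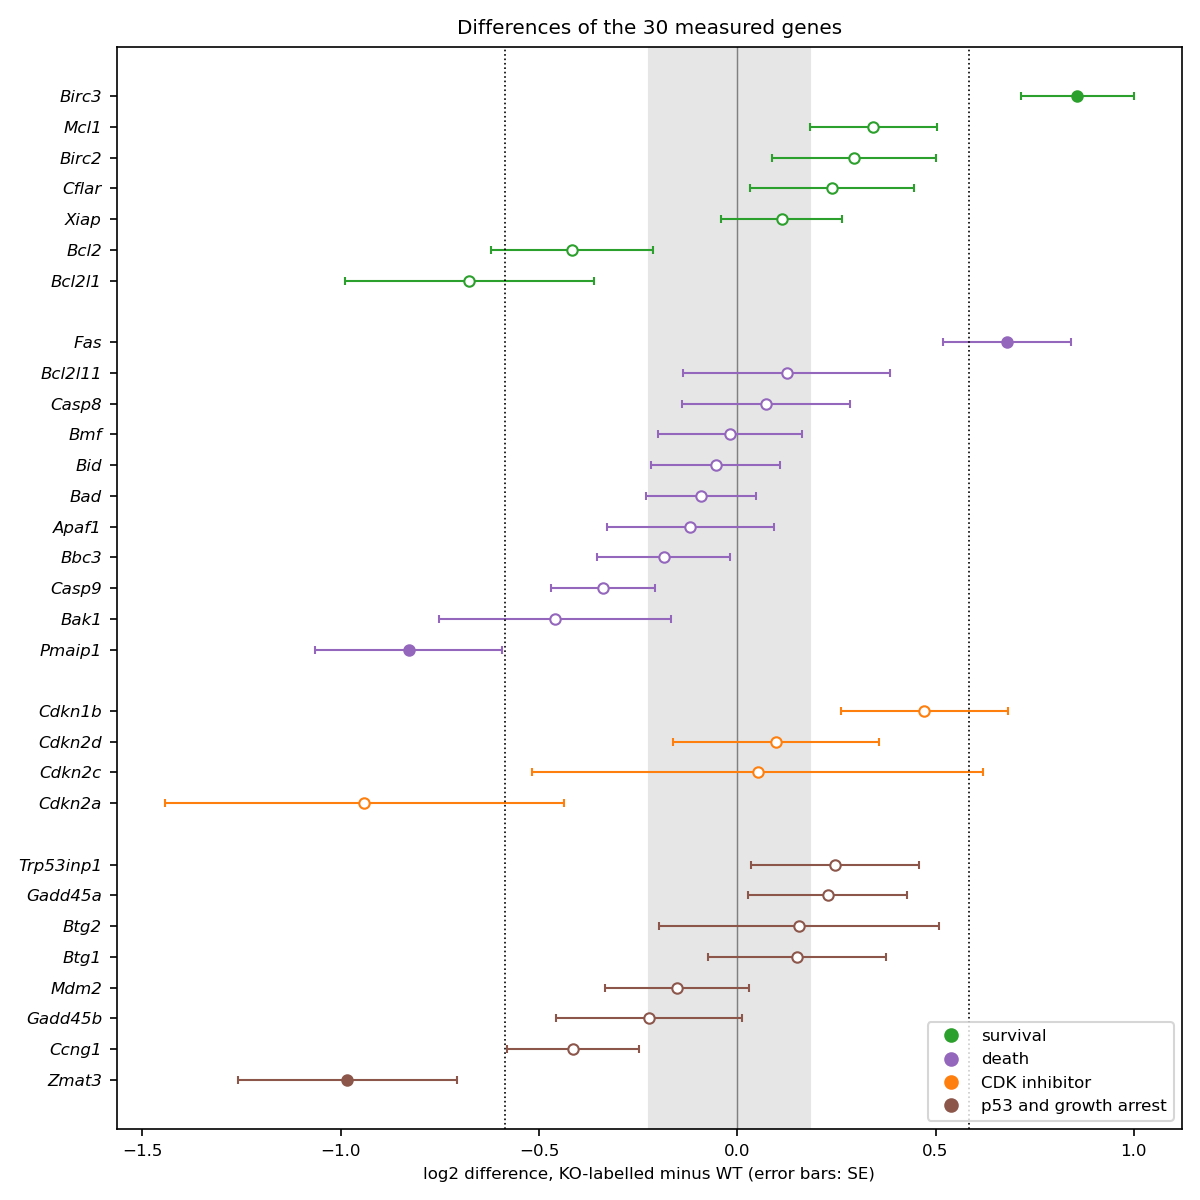
Difference between KO-labelled and WT arrays for each of the 30 measured genes, grouped by role (x axis, log2 units, error bars limma's SE, filled points passed the study's threshold, dotted lines mark 1.5-fold). The grey band spans the quartiles of all 10021 tested genes, -0.22 to 0.18, and the 4 filled genes Birc3, Fas, Pmaip1 and Zmat3 lie outside it.

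Among the survival genes, Birc3 stood highest. Birc3 encodes the inhibitor of apoptosis protein cIAP2, a ubiquitin ligase of the TNF receptor and NF-kappaB pathways. It was at 7.00, 7.29 and 7.22 in WT1, WT2 and WT3 and at 7.94, 8.13 and 8.01 in KO1, KO2 and KO3, so that all KO-labelled values exceeded all WT values. The means were 7.17 ± 0.15 and 8.03 ± 0.10 (SD, n = 3 each), a difference of 0.86 (SE 0.14, 1.81-fold, limma, unadjusted p = 0.000517, adjusted p = 0.0639). This was the smallest adjusted p of the list, and it missed 0.05. Both replicate spreads were several-fold smaller than the difference. Across the alternatives run the difference stayed between 0.77 and 0.93.

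The promoter of Birc3 is shown because this gene had the smallest p of the list and because its window holds a match to the letters that Runx proteins recognise. The window is the 250 bases before the RefSeq start site, from the assembly GRCm38.p6, chr9:7873171-7873420, minus strand, read 5′ to 3′ with the match in capitals. The match, TGTGGC, begins 123 bases upstream of the start site.
Birc3: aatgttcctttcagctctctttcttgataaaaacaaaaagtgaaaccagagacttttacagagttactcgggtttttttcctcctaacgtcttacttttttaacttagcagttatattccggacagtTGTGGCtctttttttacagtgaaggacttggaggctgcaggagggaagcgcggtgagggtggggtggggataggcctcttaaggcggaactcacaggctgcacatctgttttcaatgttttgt
On both strands, TGTGGT counted as a match, TGTGGC did as well, TGCGGT was the next form searched, and the last of the 4 forms was TGCGGC. Of all 32851 promoters of this length in the table, 38% hold at least 1, and 19 of the 44 promoters of the listed genes (43.2%) do. Promoters were found for 30 of the 33 listed genes, and Zmat3, Pmaip1 and Trp53inp1 were without an entry used here. A match is a description of letters in a window and says nothing of binding in these cells.

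The other IAP and inhibitor genes lay closer to WT. Birc2, the neighbour of Birc3 on chromosome 9 and the gene of cIAP1, was at 7.45, 6.92 and 7.66 in WT and 7.55, 7.68 and 7.68 in KO-labelled arrays, with overlapping groups (difference 0.29, 95% confidence interval -0.19 to 0.78, adjusted p = 0.540). Its second row gave 0.21. Xiap, which binds and inhibits caspases, differed by 0.11 (-0.25 to 0.47, adjusted p = 0.767). Cflar, which encodes cFLIP, was at 7.95, 7.63 and 8.22 in WT and 7.91, 8.42 and 8.19 in KO-labelled arrays, an overlapping pattern with a difference of 0.24 (-0.25 to 0.73, adjusted p = 0.615). Cflar has 3 rows, and the other two were less bright and gave 0.47 and 0.53 with groups that did not overlap.

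The Bcl-2 family protectors split. Mcl1, the short-lived protector on which cytokine-dependent lymphocytes rely, was higher on every KO-labelled array (10.54, 10.97 and 10.58) than on any WT array (10.40, 10.28 and 10.38). The difference was 0.34 (SE 0.16, 1.27-fold, adjusted p = 0.389), with KO2 highest, and 0.21 without KO2. Bcl2, the founding protector, was at 9.84, 9.70 and 9.43 in WT and 9.60, 9.00 and 9.12 in KO-labelled arrays (difference -0.42, SE 0.20, adjusted p = 0.409). Bcl2l1, which encodes Bcl-xL and is induced by activation, was at 7.11, 7.63 and 6.68 in WT and 7.01, 6.22 and 6.17 in KO-labelled arrays (difference -0.68, SE 0.31, 1.60-fold lower, adjusted p = 0.389). For Bcl2 and Bcl2l1 the KO1 value lay inside the WT range and KO2 and KO3 below it. Bcl2l1 passed the study's threshold without WT3 (-0.91), without KO1 (-0.95) and with array weights, whereas without WT2 its difference was -0.43 and without WT2 and KO2 it was -0.31. Over the 7 survival genes, 5 were higher and 2 lower, with a median of 0.24.

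**Figure D2:**
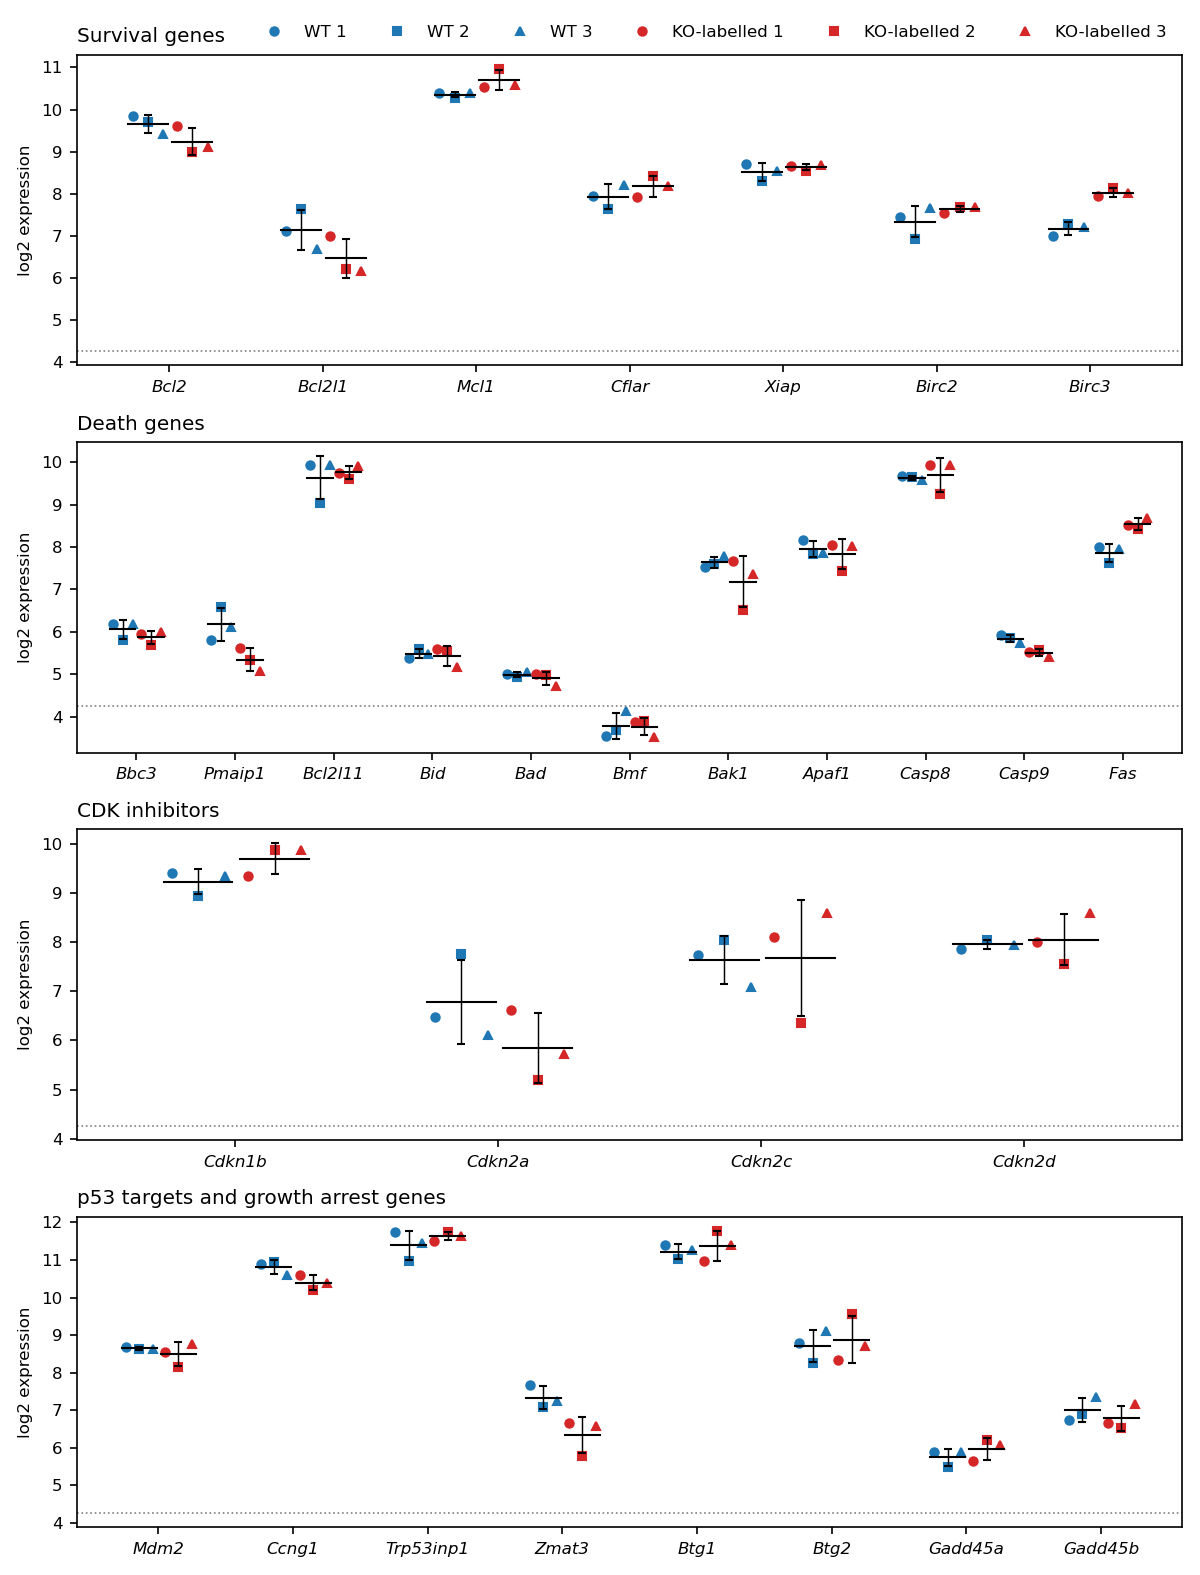
Level of the measured genes on each array (y axis, log2 units, blue WT, red KO-labelled, circles, squares and triangles are replicates 1, 2 and 3, bars are means ± SD, n = 3). The dotted line is the table's median, 4.26. All 3 KO-labelled values of Birc3 and Fas lie above, and those of Zmat3 and Pmaip1 below, all 3 WT values.

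Of the death genes, Fas passed the study's threshold upward. Fas encodes the death receptor that limits activated T cells. It was at 8.01, 7.63 and 7.96 in WT and 8.52, 8.42 and 8.70 in KO-labelled arrays, without overlap. The means were 7.86 ± 0.21 and 8.54 ± 0.14 (SD, n = 3 each), a difference of 0.68 (SE 0.16, 1.60-fold, unadjusted p = 0.00394, adjusted p = 0.147). Without WT2, the lowest WT array, the difference was 0.56, and Fas no longer reached 1.5-fold at the study's threshold. The Fas promoter, chr19:34290409-34290658 on the plus strand of GRCm38.p6, is shown beside that of Birc3 because both genes lay higher, and its window holds none of the 4 searched motifs.
Fas: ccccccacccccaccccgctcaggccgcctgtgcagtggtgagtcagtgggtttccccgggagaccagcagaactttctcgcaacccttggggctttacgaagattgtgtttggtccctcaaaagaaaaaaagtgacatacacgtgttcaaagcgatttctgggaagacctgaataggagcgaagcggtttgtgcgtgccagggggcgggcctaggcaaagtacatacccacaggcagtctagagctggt

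Pmaip1 lay the other way. It encodes Noxa, a BH3-only protein that p53 induces and that antagonises Mcl-1. It was at 5.82, 6.58 and 6.13 in WT and 5.61, 5.34 and 5.08 in KO-labelled arrays, so that all KO-labelled values were lower. The means were 6.17 ± 0.38 and 5.35 ± 0.27 (SD, n = 3 each), a difference of -0.83 (SE 0.24, 1.78-fold lower, unadjusted p = 0.00981, adjusted p = 0.217). Without WT2, the highest WT array, it was -0.63.

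None of the other tested BH3-only genes passed either threshold. Bcl2l11, which encodes Bim, the main killer after cytokine withdrawal, differed by 0.12 (95% confidence interval -0.49 to 0.74, adjusted p = 0.860), with WT2 lowest at 9.05 and the other 5 arrays between 9.61 and 9.94. Bbc3, which encodes the p53 target Puma, differed by -0.19 (-0.58 to 0.21, adjusted p = 0.634). Bid, which links caspase-8 to the mitochondria, differed by -0.05 (-0.44 to 0.33, adjusted p = 0.906), and Bad, a kinase-regulated member, by -0.09 (-0.42 to 0.24, adjusted p = 0.790). The intervals of all 4 include 0.

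Of the effector genes, Casp9 separated the groups and the others overlapped. Casp9, the caspase of the mitochondrial route, was at 5.93, 5.85 and 5.75 in WT and 5.53, 5.57 and 5.41 in KO-labelled arrays. All KO-labelled values were lower, by 0.34 on average (SE 0.13, 1.27-fold lower, unadjusted p = 0.0353, adjusted p = 0.316), which is under 1.5-fold. Bak1, which forms the mitochondrial pore, was at 7.54, 7.60 and 7.78 in WT and 7.67, 6.51 and 7.37 in KO-labelled arrays (difference -0.46, adjusted p = 0.507), and KO2 alone set the mean low: without it the difference was -0.13. Apaf1, the scaffold for caspase-9, differed by -0.12 (-0.61 to 0.38, adjusted p = 0.824). Casp8, next to Cflar on chromosome 1, differed by 0.07 (-0.43 to 0.57, adjusted p = 0.904), with KO1 and KO3 at 9.94 and KO2 at 9.25 around WT values of 9.59 to 9.68. Over the 11 measured death genes, 3 were higher and 8 lower, with a median of -0.09.

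Among p53 targets, Zmat3 had the largest difference of the list. Zmat3 encodes an RNA-binding zinc finger protein induced by p53. It was at 7.67, 7.08 and 7.24 in WT and 6.67, 5.79 and 6.58 in KO-labelled arrays, all of the latter lower. The means were 7.33 ± 0.31 and 6.35 ± 0.48 (SD, n = 3 each), a difference of -0.98 (SE 0.28, 1.98-fold lower, unadjusted p = 0.00922, adjusted p = 0.212). KO2 was the lowest, and without it the difference was -0.71.

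Ccng1, the gene of cyclin G1, which p53 induces, was bright and lay a little lower in KO-labelled arrays. It was at 10.88, 10.94 and 10.61 in WT and 10.59, 10.20 and 10.39 in KO-labelled arrays, where WT3 and KO1 were nearly equal. The difference was -0.41 (SE 0.17, 1.33-fold lower, unadjusted p = 0.0414, adjusted p = 0.331). Its promoter, chr11:40755287-40755536 on the minus strand of GRCm38.p6, is shown because it holds a match to the p53 half-site, in capitals, that begins 185 bases upstream of the start.
Ccng1: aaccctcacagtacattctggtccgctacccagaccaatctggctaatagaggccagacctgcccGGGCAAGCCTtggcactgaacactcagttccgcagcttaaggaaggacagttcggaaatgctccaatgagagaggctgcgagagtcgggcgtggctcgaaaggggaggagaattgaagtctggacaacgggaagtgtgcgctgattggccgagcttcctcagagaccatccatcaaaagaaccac
The p53 half-site is the decamer of which p53 binds a pair, and it was searched on 1 strand because it reads the same on the other. It occurs in 7.13% of all promoters of this length, and in 8 of the 44 promoters of the listed genes.

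The other p53 and growth arrest genes did not separate. Mdm2, the ubiquitin ligase that p53 induces and that degrades p53, differed by -0.15 (95% confidence interval -0.58 to 0.28, adjusted p = 0.725). Trp53inp1, a p53-induced regulator of death and autophagy, differed by 0.25 (-0.26 to 0.75, adjusted p = 0.616). Gadd45a, a DNA damage gene, differed by 0.23 (-0.25 to 0.70, adjusted p = 0.624), and its relative Gadd45b by -0.22 (-0.78 to 0.33, adjusted p = 0.687). Btg1 and Btg2, antiproliferative genes that are high in quiescent lymphocytes, differed by 0.15 (-0.38 to 0.68, adjusted p = 0.789) and 0.16 (-0.68 to 0.99, adjusted p = 0.870), with KO2 the highest array for both, at 11.76 and 9.57. Of the 8 measured genes of this group 4 were higher and 4 lower, with a median of -0.0004.

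For all 4 measured CDK inhibitors the groups overlapped, and none passed the study's threshold with all 6 arrays. Cdkn1b, the gene of p27, was at 9.40, 8.94 and 9.35 in WT and 9.34, 9.88 and 9.88 in KO-labelled arrays (difference 0.47, SE 0.21, adjusted p = 0.374), and its second row gave 0.18. KO1 was inside the WT range, and without it the difference was 0.65 and passed the study's threshold. Cdkn2a, whose locus encodes p16 and Arf, was at 6.48, 7.76 and 6.12 in WT and 6.61, 5.20 and 5.73 in KO-labelled arrays (difference -0.94, SE 0.50, adjusted p = 0.440), with WT2 far above the others. Without WT2 the difference was -0.45. Cdkn2c, the gene of p18, was at 7.75, 8.05 and 7.09 in WT and 8.10, 6.36 and 8.59 in KO-labelled arrays, so that KO2 and KO3 were the lowest and the highest of the 6 arrays (difference 0.05, SE 0.57, adjusted p = 0.979). Cdkn2d, the gene of p19, followed the same order among KO-labelled arrays, at 8.01, 7.55 and 8.59, around WT values of 7.87 to 8.05 (difference 0.10, adjusted p = 0.892).

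These arrays also differed in cell-cycle genes. The mean of 17 S phase genes, each centred on its own mean over the 6 arrays, was 0.13, 0.55 and -0.38 in WT and 0.65, -1.30 and 0.35 in KO-labelled arrays, and that of 19 G2/M genes was 0.19, 0.22 and -0.34 against 0.60, -1.39 and 0.72. KO2 was thus the array lowest for division genes, and it was also the lowest for the 4 CDK inhibitors on average, at -0.61 against -0.23 to 0.34 on the other 5. That held for Cdkn2a, Cdkn2c and Cdkn2d, whereas Cdkn1b was highest on KO2, at 9.878. The mean of the survival genes, whose members lay in both directions, stayed between -0.11 and 0.10. With the G2/M mean as a covariate, the 4 genes at the study's threshold were Birc3, Fas, Zmat3 and Pmaip1, with differences of 0.85, 0.68, -0.97 and -0.83. The G2/M mean averaged nearly the same in WT and KO-labelled arrays, so that this covariate could move the differences only a little. A part of cell division in these differences was not tested.

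**Figure D3:**
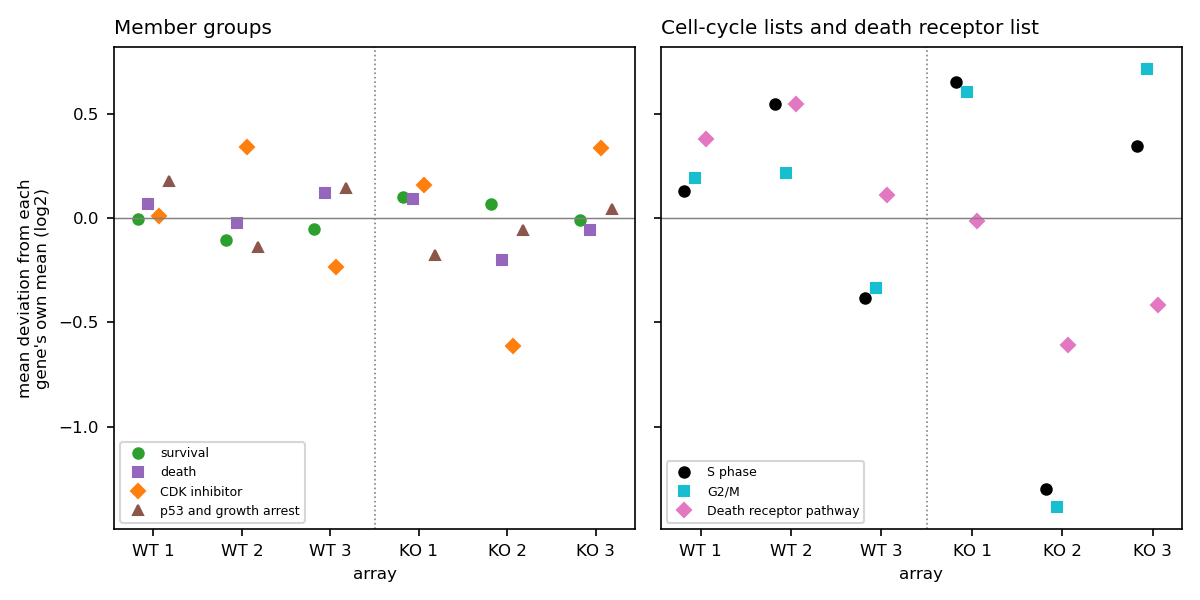
Mean deviation of each gene group from its own 6-array mean on each array (y axis, log2 units, x axis, the arrays, 1 symbol per group, WT arrays left of the dotted line). The S phase and G2/M groups are lowest on KO2, at -1.30 and -1.39, while the mean of the survival genes stays between -0.11 and 0.10.

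Genes of the same pathways outside the list were 90 in number, of which 82 were measured and 66 tested. At the adjusted threshold 1 of them passed, downward, as did 0.359% of all tested genes in that direction, and at the study's threshold 13, 3 upward and 10 downward. Those 13 are 19.7% of the 66 genes, beside the 8.3% of all tested genes. Of the 10 death receptor genes, all tested, 9 were lower, with a median of -0.78, and 4 passed the study's threshold downward and none upward.

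Fasl, which encodes the ligand of Fas, fell. It was at 8.62, 8.72 and 8.70 in WT and 6.97, 5.73 and 5.71 in KO-labelled arrays, a difference of -2.54 (SE 0.34, 5.83-fold lower, adjusted p = 0.0333). The call was lost without WT1, WT2, WT3, KO2 or KO3, where the adjusted p was 0.104, 0.0974, 0.149, 0.0977 and 0.119, and the difference stayed between -2.96 and -2.32 in the alternatives run. The values of the receptor gene Fas and of its ligand thus lay in opposite directions. Tnfrsf1b, the gene of TNF receptor 2, was at 8.81, 8.84 and 8.49 in WT and 7.86, 7.53 and 7.87 in KO-labelled arrays (difference -0.96, SE 0.17, adjusted p = 0.0686). Ripk3, the kinase of necroptosis, had means of 8.06 and 7.13 (difference -0.93, adjusted p = 0.331, -0.48 without KO2), and Tnfrsf10b, the gene of the TRAIL receptor, 5.79 and 5.03 (difference -0.77, adjusted p = 0.293, -0.50 without KO2).

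Of the 12 measured caspase and mitochondrial genes, 9 were lower. Upward, 1 of the 11 tested passed the study's threshold, beside 3.97% of all tested genes. This was Casp4, an inflammatory caspase gene, at 5.76, 4.61 and 5.84 in WT and 7.21, 6.43 and 6.53 in KO-labelled arrays (difference 1.32, adjusted p = 0.215, 0.92 without WT2). Its neighbour Casp1, chosen after its values were seen, was at 7.92, 4.60 and 7.56 in WT and 8.73, 8.22 and 8.31 in KO-labelled arrays (difference 1.73, adjusted p = 0.392, 0.68 without WT2). In both genes the lowest value was that of WT2, and WT1 and WT3 were nearer the KO-labelled arrays. Of 9 measured Bcl-2 family genes outside the list and 5 measured other IAP genes, 3 each were bright enough to be tested, and none of those passed the study's threshold.

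Of the 26 other p53 genes, 12 were higher and 14 lower, and 21 were tested. The study's threshold was passed by 1 upward and 4 downward, beside 3.97% and 4.33% of all tested genes. Downward were Gadd45g, a stress gene of the same family as Gadd45a (-1.56, adjusted p = 0.352, -0.94 without WT2), Sesn2, a stress-induced brake on mTORC1 (-0.94, adjusted p = 0.267), Phlda3, an inhibitor of Akt (-0.91, adjusted p = 0.292, -0.59 without KO2), and Tigar, a regulator of glycolysis (-0.67, adjusted p = 0.204). Upward was Atm, the DNA damage kinase (0.60, adjusted p = 0.332), chosen after its values were seen, at 0.33 without WT2 and then under 1.5-fold.

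Among 17 other CDK inhibitor and target genes, 15 were tested. Cdkn2b and Ccnd2 passed the study's threshold, both downward, as did 4.33% of all tested genes. Cdkn2b, the gene of p15 next to Cdkn2a, was at 6.44, 8.53 and 6.76 in WT and 5.55, 5.05 and 4.73 in KO-labelled arrays (difference -2.13, SE 0.54, adjusted p = 0.169, -1.49 without WT2). WT2 was the highest array for both genes of this locus. Ccnd2, the cyclin D2 gene induced by IL-2, was at 10.42, 10.47 and 10.38 in WT and 10.08, 9.87 and 9.32 in KO-labelled arrays (difference -0.67, adjusted p = 0.252). The 3 Foxo genes were all higher, and 1 passed the study's threshold, upward like 3.97% of all tested genes. This was Foxo1, which encodes a transcription factor of quiescence whose known targets include Cdkn1b and Bcl2l11, at 8.44, 8.39 and 8.76 in WT and 8.78, 9.62 and 9.34 in KO-labelled arrays (difference 0.72, adjusted p = 0.272).

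**Figure D4:**
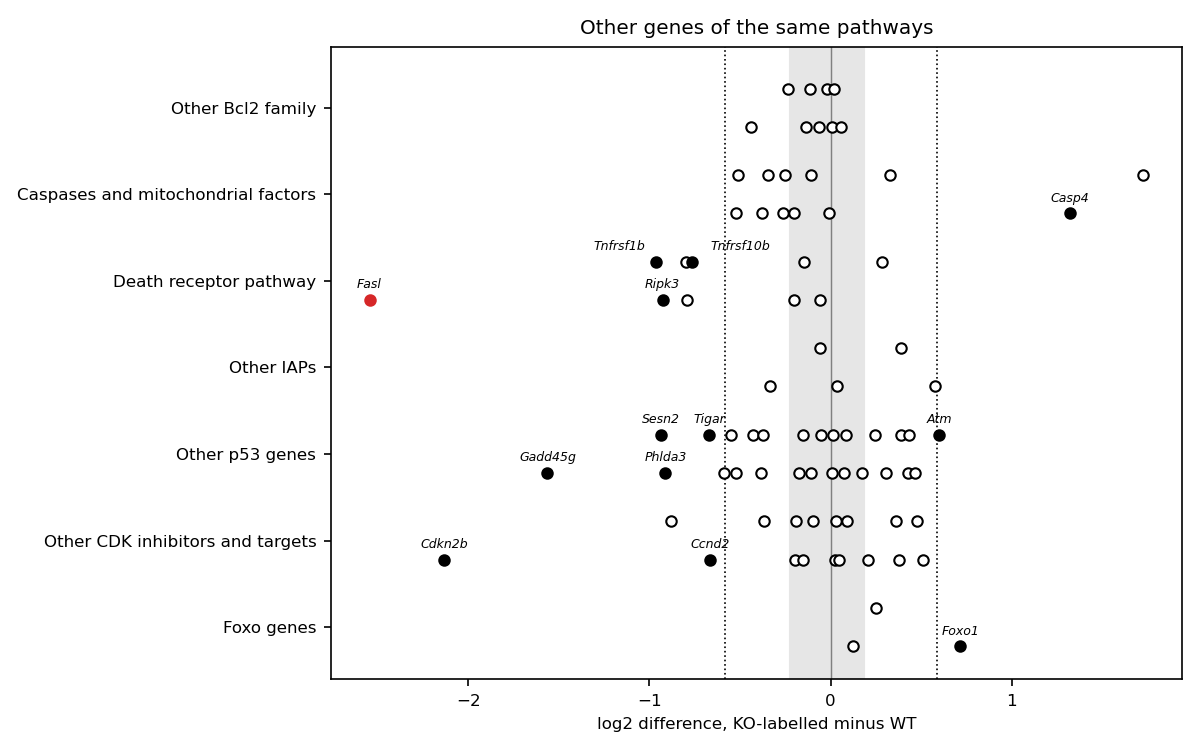
Difference between KO-labelled and WT arrays for the 82 measured pathway genes outside the list, by group (x axis, log2 units, filled points passed the study's threshold, red an adjusted p of 0.05, dotted lines mark 1.5-fold, grey band as the quartiles of all tested genes). Fasl lies farthest to the left, at -2.54, and 9 of the 10 death receptor genes lie below 0.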

How the data were processed

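Values were those deposited by the authors, log2 values from a robust multichip average (RMA) with GC correction in Partek, which corrects background, normalizes by quantiles and summarises probes per transcript cluster, with 1 column per array and no pooling. Versions of Partek and RMA were absent from the submitters' processing notes and from the methods. RMA gives no detection calls, and it compresses differences of dim genes.

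The table held 35399 rows, of which 21789 carried 1 gene symbol, 1621 several and 11989 none, by the platform annotation. The brightest row of a gene was kept, and genes whose highest value reached 4.26, the median of the table, were tested (10021 of 19938). KO-labelled and WT arrays (3 each, grouped by their titles) were compared by limma 3.58.1 in R 4.3.3 (lmFit, eBayes, no covariate, two-sided), with Benjamini-Hochberg adjustment over all tested genes. SE and 95% confidence intervals are limma's. The fit was tested on simulated data. Promoters were taken from RefSeq (GRCm38.p6), and figures were drawn with matplotlib 3.10.9.

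All 33 genes are named. Of the other pathway genes, those past the adjusted threshold and up to 4 per group past the study's threshold are named, with Casp1 and Atm as exceptions chosen later. The members and lists were chosen with earlier results of these data known. Alternatives were the filter on dim genes, quantile or median normalization, no moderation, array weights, priors with a trend and robust to outliers, a block for replicate number, averaging a gene's rows, the G2/M mean as a covariate, each array left out, and WT2 and KO2 left out together.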

Additional observations from a re-analysis of the deposited data

How the results depend on the processing

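Birc3, Fas, Zmat3 and Pmaip1 kept their direction under all 17 alternatives, with adjusted p of 0.00748 to 0.241, 0.0234 to 0.448, 0.0336 to 0.419 and 0.0660 to 0.542. Many of these settings could not have reversed the direction. The filters, replicate block, priors, no moderation and averaging of rows left these differences unchanged. The groups did not overlap, so that leaving out or weighting arrays could not change the sign either. Quantile and median normalization, which could, gave 0.87 and 0.79 (Birc3), 0.69 and 0.61 (Fas), -1.04 and -1.05 (Zmat3) and -0.91 and -0.90 (Pmaip1). Of all tested genes, the adjusted threshold was passed by 36 with no filter on dim genes, 0 with no moderation, 547 with array weights and 9 to 67 with 1 array left out (17 if WT1 was dropped, 26 for WT2, 11 for WT3, 27 for KO2 and 9 for KO3). The study's threshold was passed by 508 (241 higher, 267 lower) with no moderation and by 651 to 1258 (245 to 514 higher, 301 to 744 lower) with 1 array left out. Of the listed genes, array weights called 3, and with 1 array left out 0 were called, 1 to 3 passed the study's threshold upward and 2 to 6 downward. The single gene upward was found without WT2, and the largest numbers came without KO1.

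The deviations gave no sign that the replicate numbers pair the arrays. Those of same-numbered arrays correlated at -0.13, -0.37 and -0.13, and no array correlated best with its own number. The main axis of variation, with WT2 and KO2 at its ends, enters these correlations, so that a weaker pairing could have been missed. With the replicate block 1 of all tested genes was called, the smallest adjusted p of the listed genes was 0.241, and Fasl had 0.154. Fasl also missed the threshold with no filter (0.0798), with no moderation (0.276) and without WT2 and KO2 (0.109).

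The median of the survival genes was 0.12 with array weights, 0.047 without WT2 and KO2, and 0.084 to 0.36 with 1 array left out. The ranges with 1 array left out were -0.17 to -0.04 for death genes, -0.29 to 0.36 for CDK inhibitors and -0.12 to 0.07 for p53 and growth arrest genes, whose median was -0.14 without WT2 and KO2. Small differences changed sign. Without WT2 and KO2 the values were -0.035 (Cflar), -0.10 (Bcl2l11), 0.019 (Apaf1), 0.0083 (Mdm2), -0.019 (Trp53inp1), -0.15 (Btg1), -0.42 (Btg2) and -0.017 (Gadd45a). With array weights they were -0.0036 (Bcl2l11), 0.0061 (Mdm2), -0.11 (Btg2) and 0.089 (Gadd45b), and median normalization gave -0.018 for Cdkn2c. With 1 array left out, ranges that crossed 0 were -0.17 to 0.27 (Bcl2l11), -0.13 to 0.079 (Bid), -0.23 to 0.081 (Apaf1), -0.044 to 0.30 (Casp8), -0.40 to 0.71 (Cdkn2c), -0.17 to 0.35 (Cdkn2d), -0.29 to 0.016 (Mdm2), -0.042 to 0.35 (Btg1) and -0.19 to 0.42 (Btg2). The causes were not tested. The normalizations moved the median of all tested genes to -0.06 (quantile) and -0.09 (median), from -0.01.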
